A study of Homo sapiens with 2 samples.

Results

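OTX2 binding along human chromosome 7 was described in D283 tumorspheres from all 4339 OTX2 peaks that the deposited peak list places on this chromosome, out of 137412 peaks in all. Peaks were taken by the name of their chromosome and not by a measured value, and each peak on it was kept. Chromosome 7 itself was chosen with earlier results of these data known, so what follows is a description only. D283 is an established medulloblastoma cell line, grown here as floating tumorspheres in neural proliferation medium with EGF and bFGF. The tumorspheres were untreated OTX2-expressing controls, and both libraries came from them: 1 OTX2 ChIP library pulled down with an OTX2 antibody after 10 minutes of crosslinking, and 1 input library with no antibody. The authors called peaks of the ChIP library over the input library, positions are of GRCh38, and the arms were divided at 60 Mb. There was no replicate, so no difference below has a replicate error or a p-value, and the exact Poisson and Wilson 95% intervals given cover counting error only.

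OTX2 is a homeodomain transcription factor of the developing forebrain, midbrain and retina, which is highly expressed in many medulloblastomas, tumours of the cerebellum. It binds short DNA sequences around the core TAATCC, and also TAATCT, mostly outside promoters. In ChIP-Seq, a binding site appears as a peak of stacked fragments over the level of the input library, and the height of the stack at its summit counts the fragments pulled down there. Pericentromeric DNA holds repeats to which few reads can be mapped uniquely, so peak lists are usually thin around a centromere.

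Sequences of the promoters that carry tall chromosome 7 peaks are shown to make the binding sequence visible. A motif match is a description of the sequence and not a mapped binding site. None of the 20 tallest peaks of the chromosome overlapped a promoter, so the 8 protein-coding promoter records with the tallest overlapping peaks were taken, after their values were seen. Of these, 3 hold a motif in the bases read here and all 3 are shown. Of the 5 that hold none, CCDC146 is shown, and AGMO, C7orf33, TRIL and a second start of CHN2 are not. Each is the 250 bases before the transcript start in the RefSeq record (GRCh38.p14), in the direction of the gene, with TAATCC and TAATCT on either strand (GGATTA and AGATTA as read here) in capitals.
CHN2: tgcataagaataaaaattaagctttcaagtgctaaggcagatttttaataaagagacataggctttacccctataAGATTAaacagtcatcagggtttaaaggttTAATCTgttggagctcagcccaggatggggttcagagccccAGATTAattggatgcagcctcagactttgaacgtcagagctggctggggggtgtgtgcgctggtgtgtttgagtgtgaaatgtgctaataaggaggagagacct
GTF2IRD1: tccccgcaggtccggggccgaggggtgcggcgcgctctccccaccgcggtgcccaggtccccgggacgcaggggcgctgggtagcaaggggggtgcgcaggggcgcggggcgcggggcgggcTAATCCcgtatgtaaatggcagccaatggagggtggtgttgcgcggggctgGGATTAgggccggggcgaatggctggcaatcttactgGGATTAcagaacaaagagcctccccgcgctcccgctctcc
MALSU1: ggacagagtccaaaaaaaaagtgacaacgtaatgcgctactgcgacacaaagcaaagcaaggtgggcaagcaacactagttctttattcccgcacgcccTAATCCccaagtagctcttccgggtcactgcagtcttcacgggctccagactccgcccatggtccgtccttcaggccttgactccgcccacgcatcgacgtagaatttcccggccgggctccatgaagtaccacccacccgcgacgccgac
CCDC146: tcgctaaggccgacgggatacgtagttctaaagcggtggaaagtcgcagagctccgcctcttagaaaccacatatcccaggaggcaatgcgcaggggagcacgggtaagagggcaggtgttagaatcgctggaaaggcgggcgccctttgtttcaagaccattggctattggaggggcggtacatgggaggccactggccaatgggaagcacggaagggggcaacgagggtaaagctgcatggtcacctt
The CHN2 sequence, at chr7:29479504-29479753 on the plus strand, lies before an internal start of the gene for beta-chimaerin, a GTPase-activating protein for RAC. It holds 3 TAATCT, at 175, 145 and 104 bases before the start, under a peak of 198 fragments (171 to 228) and a fold enrichment of 29.4 with its summit 156 bases before the start. GTF2IRD1, a transcription factor of the TFII-I family, has 3 TAATCC in chr7:74453656-74453905 (plus strand), at 128, 77 and 40 bases before the start. Its peak of 116 fragments (95.9 to 139) and a fold enrichment of 17.3 had the summit between these motifs, 95 bases before the start. MALSU1, which helps to assemble the mitochondrial ribosome, has 1 TAATCC at 151 bases before the start in chr7:23299089-23299338 (plus strand), under a peak of 131 fragments (110 to 155) and a fold enrichment of 19.5. The sequence of CCDC146, which encodes a coiled-coil protein of centrioles and flagella, holds neither motif in chr7:77122365-77122614 (plus strand). Its peak had 122 fragments (101 to 146) and a fold enrichment of 18.2. That peak runs from 77122124 to 77122682 with its summit at 77122374, so part of it lies outside the bases read here.

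OTX2 peaks were sparser on chromosome 7 than on any other autosome. From the first to the last peak, chromosome 7 held 27.3 peaks per Mb (95% interval 26.5 to 28.1) and the other autosomes together 49.1, a ratio of 0.555 (0.538 to 0.572). The next lowest autosomes were chromosome 21 with 29.6 and chromosome 16 with 33.0 peaks per Mb, and chromosome X had 20.0. In gene number chromosome 7 ranked in the middle, with 5.79 protein-coding genes per Mb and rank 12 of 22. The sequence TAATCC was counted in GRCh37 over whole chromosomes, and chromosome 7 had 813 copies per Mb, rank 9 of 22, against 789 on the other autosomes together. For each 1000 copies of TAATCC, 34.4 peaks were called on chromosome 7, 64.99 on the other autosomes and 28.0 on chromosome X. The nearest single autosomes by this measure were chromosome 19 with 36.5, chromosome 16 with 40.2 and chromosome 21 with 48.6.

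The local input was also low on chromosome 7. The deposited pileup and fold enrichment of a peak give back the input coverage that the peak was compared with, on the scale of the pileup. The peak caller never lets this value fall below the genome-wide mean of the input, here 3.99, so any lower input is listed at this floor. On chromosome 7, 3322 peaks (76.6%, Wilson interval 75.3% to 77.8%) lay at the floor, against 23.4% on the other autosomes. Among the single other autosomes the share ran from 10.8% on chromosome 17 to 46.8% on chromosome 16, and on chromosome X it was 77.0%. Chromosome 21, the next sparsest autosome, stood at 25.6%. The median local input was 3.99 on chromosome 7 and 5.00 on the other autosomes, and the means were 4.25 and 6.01. At the upper end, 3 chromosome 7 peaks reached a local input 3 times the floor, with a maximum of 13.0, whereas the other autosomes had 5757 such peaks and a maximum of 184. The part of the local input in the peak counts was not tested.

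**Figure D1:**
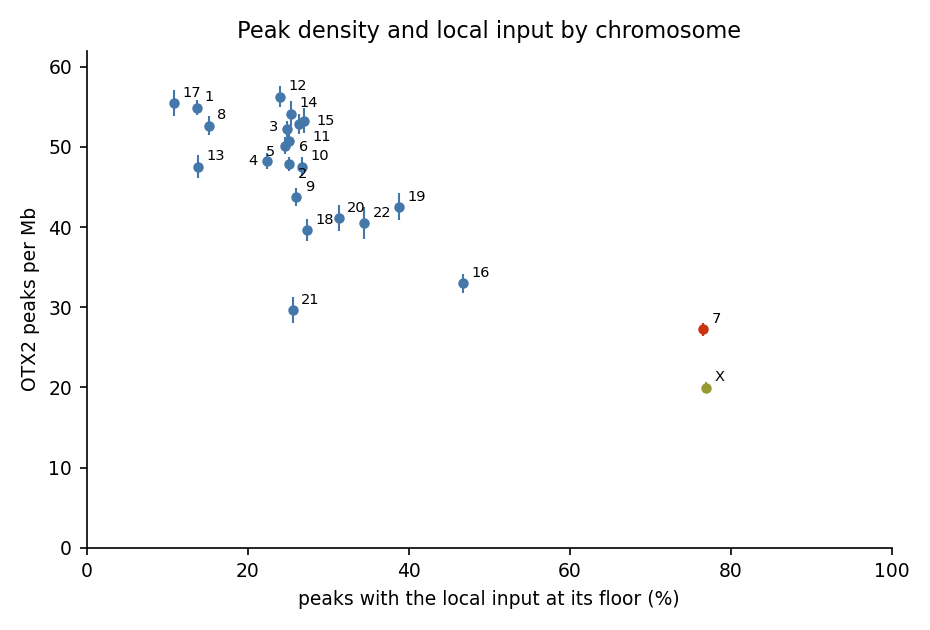
OTX2 peaks per Mb (vertical axis, exact Poisson 95% intervals) against the share of peaks whose local input lay at its floor (horizontal axis, percent), 1 point for each chromosome from 1 to 22 and X. Chromosome 7 (red) lies at 27.3 peaks per Mb and 76.6%, beside chromosome X (olive, 20.0 and 77.0%) and apart from the other autosomes (blue), of which chromosome 16 has the highest share at the floor, 46.8%.

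The plot of density against input places chromosome 7 near chromosome X and outside the range of the other 21 autosomes on both axes. Its density was still 1.36 times that of chromosome X (1.30 to 1.43), at a share at the floor that differed by less than the width of the intervals.

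The peaks that were called on chromosome 7 were also lower, and the gap to the other autosomes widened with height. Heights are given as whole ChIP fragments at the summit, each worth 0.735 of deposited pileup. Low peaks were nearly as high as elsewhere, with a 10th percentile of 25 fragments against 26 and a lower quartile of 32 against 34. The median was 46 fragments on chromosome 7 and 53 on the other autosomes, the upper quartile 77 against 96, the 90th percentile 125 against 168 and the 99th percentile 211 against 315. The tallest chromosome 7 peak had 294 fragments, the lowest maximum of the 22 autosomes, against 461 for the tallest of the others, and 1962 peaks of the other autosomes (1.51%) were taller than it. On chromosome X the median was 47 and the maximum 307 fragments.

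Counted by class of height, the shortfall was smallest among low peaks and nearly complete at the top. Peaks of 15 to 24 and of 25 to 34 fragments reached 66.8% and 67.4% of their density on the other autosomes, and peaks of 35 to 49 fragments 60.6%. From 100 to 149 fragments the share was 53.5% (472 peaks), from 150 to 199 fragments 37.6% (172 peaks) and from 200 to 249 fragments 20.9% (55 peaks). At 250 fragments or more, 10 peaks on chromosome 7 stood against 4380 on the other autosomes, 3.79% of their density (1.81% to 6.97%). Peaks of at least 100 fragments, called tall here, numbered 709 on chromosome 7, or 4.45 per Mb (4.13 to 4.79) against 11.7 per Mb on the other autosomes, a ratio of 0.380 (0.352 to 0.409). Of the tall peaks on chromosome 7, 458 (64.6%) had their local input at the floor, against 10.2% of the tall peaks elsewhere.

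**Figure D2:**
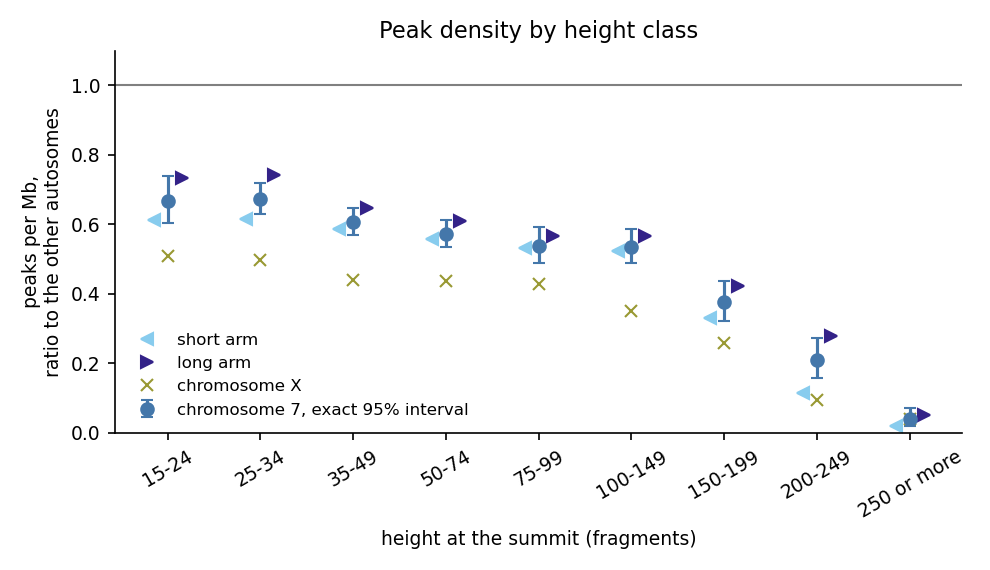
Density of OTX2 peaks relative to the pooled other autosomes (vertical axis, ratio of peaks per Mb) in 9 classes of summit height (horizontal axis, fragments) for chromosome 7 with exact 95% intervals, for its short and long arms and for chromosome X. The chromosome 7 ratio declines from 0.668 at 15 to 24 fragments to 0.0379 at 250 or more, with the long arm above the short arm in each class.

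As the plot of density by height shows, both arms and chromosome X followed the same downward course, and the short arm lay below the long arm in each of the 9 classes. In the class from 200 to 249 fragments the short arm stood at 0.113 and the long arm at 0.278 of the density on the other autosomes.

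The chromosome 7 peaks were also slightly shorter. Their median length was 406 bp against 443 bp on the other autosomes, and together they covered 13.1 kb per Mb against 26.6. The median fold enrichment was higher on chromosome 7, at 6.84 against 6.08, while its maximum was lower, at 43.6 against 56.1. The median −log10 q was 17.5 in both. The chromosome 7 peaks thus combined lower heights with lower inputs.

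Fewer peaks per Mb of chromosome were found in each kind of location relative to genes and their transcription start sites (TSS). Introns of protein-coding genes held 2111 of the chromosome 7 peaks, at 60.7% (58.1% to 63.4%) of the density on the other autosomes, and 1761 peaks lay outside such genes, at 53.3% (50.8% to 55.8%). Within 1 kb of a TSS there were 229 peaks, at 47.5% (41.4% to 54.1%), and in the rest of a window reaching 5 kb before and 2 kb past the TSS 143 peaks, at 42.8% (36.0% to 50.5%). Exons elsewhere held 95 peaks, at 44.5% (35.9% to 54.6%). The intervals of these last 3 locations overlap. All these densities are per Mb of the whole chromosome, not per gene or per length of the location. They therefore also depend on the number of genes per Mb and do not rank the locations. Median heights were 34 fragments within 1 kb of a TSS, 39 in the rest of the window, 46 in other exons, 47 in introns and 49 outside genes. On the other autosomes these medians were 45, 46, 52, 55 and 55 fragments.

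The 2 arms resembled each other far more than either resembled the other autosomes. The short arm held 1522 peaks, 25.8 per Mb (24.5 to 27.1), and the long arm 2817 peaks, 29.4 per Mb (28.3 to 30.5). These densities are 52.5% and 59.9% of that of the other autosomes, and the ratio of short to long arm was 0.876 (0.823 to 0.933). That ratio changed with how the thin stretch around the centromere was counted. With the boundary moved to 58 Mb, or with only the 100 kb windows that held a peak counted as length, the interval took in 1. The median height was 47 fragments on the short arm and 46 on the long arm, and the median local input 3.99 on both. The share at the input floor was 77.5% on the short arm and 76.0% on the long arm, with overlapping intervals. Tall peaks were somewhat scarcer on the short arm, with 240 (4.06 per Mb) against 469 (4.90 per Mb), a ratio of 0.830 (0.707 to 0.971). Of peaks of at least 200 fragments, 13 lay on the short arm and 52 on the long arm. The tallest had 281 and 294 fragments.

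Along the chromosome the lower density was general but not uniform. In each of the 31 full 5 Mb bins of chromosome 7 there were fewer peaks than in the median bin of the other autosomes, which held 256 peaks (quartiles 197 and 312 over 521 bins). Chromosome 7 bins ranged from 29 to 248 peaks with a median of 140, and 27 of the 31 lay below the lower quartile of the other bins. With a fold enrichment of at least 5, 29 of the 31 bins lay below the median, and with bins of 2 Mb 93.67% did. The highest chromosome 7 bin was exceeded by 53.4% of the other bins. Relative to their own mean, the bins varied about as much as those of other autosomes, with a coefficient of variation of 38.9%, rank 9 of 22.

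The counts were low also against bins of like gene number. Compared with other autosomes' bins in the same class of gene number, each of the 31 bins again lay below the class median, where 49.5% of the other bins do. The chromosome 7 bin held a median of 53.7% of its class median, with a range of 18.3% to 95.9%, and 21 of the 31 bins lay between 35% and 75%. In bins of 20 to 39 genes, the most frequent class, the median was 167 peaks on chromosome 7 (14 bins) and 284 elsewhere. The gap was widest in bins of 40 to 79 genes, with a median of 95.5 (4 bins) against 280.5. The tall peaks were spread in the same way, with 5 to 46 per bin and a median of 23, against a median of 58 on the other autosomes, and each of the 31 bins lay below that median.

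**Figure D3:**
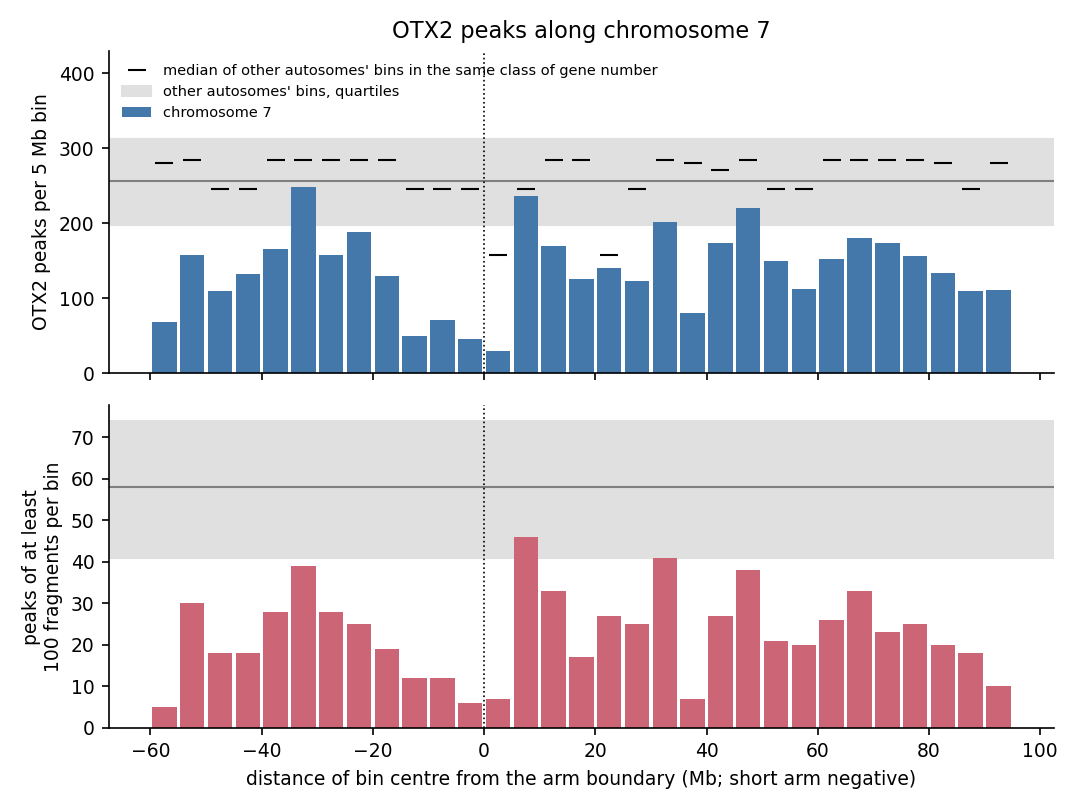
OTX2 peaks (upper panel) and peaks of at least 100 fragments (lower panel) in each full 5 Mb bin of chromosome 7, plotted by the distance of the bin from the arm boundary in Mb. The grey line and band are the median and quartiles of the other autosomes' bins and the black dashes the median of those with a like number of genes. All 31 bars lie below both grey medians, with the lowest, 29 peaks, just beyond the boundary.

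In the plot of peaks along the chromosome, the deepest stretch crosses the centromere. The 4 bins from 45 to 65 Mb held 49, 71, 45 and 29 peaks, or 19.9%, 28.9%, 18.3% and 18.4% of their class medians. The other 27 bins held 68 to 248 peaks with a median of 152. The thin stretch still had tall peaks: 37 of its peaks had at least 100 fragments, and the tallest peak of the whole chromosome and the tallest of the short arm both lie in it.

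Low bins away from the centromere were the first bin of the short arm and the bin from 95 to 100 Mb. From 0 to 5 Mb there were 68 peaks over 42 genes, 24.2% of the class median, and the tallest had 146 fragments, 195 kb past the TSS of MAD1L1, a spindle checkpoint gene. The first 5 Mb of 16 other autosomes held 71 to 344 peaks with a median of 182.5. The chromosome 7 end differed from the lowest of these, on chromosome 8, by less than its counting error. From 95 to 100 Mb there were 80 peaks over 50 genes, 28.5% of the class median, and the tallest peak, of 205 fragments, lay 252 kb upstream of TAC1, the gene of the neuropeptide substance P. At the far end, the last, partial bin from 155 Mb held 43 peaks, none above 134 fragments.

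Stretches without a peak were longer than elsewhere. The median distance between neighbouring peaks was 15.4 kb on chromosome 7 and 8.40 kb on the other autosomes, and 12 gaps were longer than 500 kb, 7.54 per 100 Mb against 4.13. The longest, of 4.39 Mb from 59134652 to 63523329, held the arm boundary and no protein-coding TSS. Outside the pericentromeric region, the gap from 157429595 to 158704800 (1.28 Mb) took in the whole of PTPRN2, a receptor-type phosphatase of secretory vesicles. The gap from 49046696 to 50056353 (1.01 Mb) held the TSS of VWC2, which encodes a secreted BMP antagonist. A gap of 0.773 Mb from 155805228 to 156577952 held the TSS of SHH, the hedgehog ligand that drives growth of cerebellar granule cell precursors.

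Other bins held more peaks. The fullest bin, from 25 to 30 Mb, had 248 peaks, 87.3% of its class median, and its tallest peak, 23.2 kb upstream of the leucine-rich repeat gene TRIL, had 233 fragments. The bin from 65 to 70 Mb had 236 peaks, 95.9% of its class median. The gene-poor bin from 80 to 85 Mb, which holds SEMA3A, had 140 peaks, 88.6% of its class median but 54.7% of the median of all other bins. From 105 to 110 Mb there were 220 peaks, 77.5%, and from 90 to 95 Mb 202 peaks, 71.1%. The first of these bins lies on the short arm and the others on the long arm.

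At a finer scale, dense 1 Mb windows lay on both arms. On the short arm, the window from 29 to 30 Mb, which takes in part of CHN2, held 66 peaks, 15 of them tall. On the long arm, the adjoining windows from 69 to 71 Mb held 67 and 69 peaks, both over AUTS2, a gene of neuronal migration and neurodevelopmental disorder. The window from 105 to 106 Mb, with KMT2E, a chromatin regulator, and the splicing kinase gene SRPK2, held 69 peaks.

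Counted over gene bodies, AUTS2 had the most peaks, 100 over 1195 kb, of which 27 were tall. CNTNAP2, which encodes a neurexin-like adhesion protein, followed with 69 over its 2305 kb. Per length, CHN2 was denser than both, with 38 peaks in 368 kb, or 103 per Mb against 83.7 in AUTS2 and 29.9 in CNTNAP2. The whole chromosome had 27.3 per Mb, so the density in CNTNAP2 was near that of the chromosome. Next came CDK14, a cyclin-dependent kinase gene, and SEMA3A, a secreted axon repellent, with 33 peaks each, and SND1, a nuclease-domain protein gene, with 32. CREB5, a bZIP transcription factor, and IMMP2L, a mitochondrial peptidase gene, had 31 each, and CADPS2, which primes vesicle release, and EXOC4, of the exocyst, 30 each. Per Mb, IMMP2L had 34.4 and EXOC4 36.9 peaks, and CDK14, SEMA3A, SND1, CREB5 and CADPS2 had from 44.3 to 72.7. PTPRN2, also a long gene, had none.

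The share of peaks at the input floor was high in every bin. It ran from 71.4% to 87.3% over the 31 full bins, with a median of 77.0%, and was 81.4% in the last, partial bin. The 4 thin bins from 45 to 65 Mb stood at 81.6%, 87.3%, 84.4% and 72.4%, and the 2 fullest bins, from 25 to 30 and from 65 to 70 Mb, at 72.6% and 72.0%. On the other autosomes the median bin stood at 25.7%, and 10 of 521 bins reached the lowest chromosome 7 value. Of these, 7 are the bins of chromosome 16 from 55 to 90 Mb, with 103 to 187 peaks each, 2 are the bins of chromosome 17 from 5 to 15 Mb, with 113 and 111 peaks, and 1 on chromosome 9 had a single peak. Over all 521 bins of the other autosomes the quartiles were 197 and 312 peaks. Whether the share at the floor and the peak count of a bin are related was not tested.

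**Figure D4:**
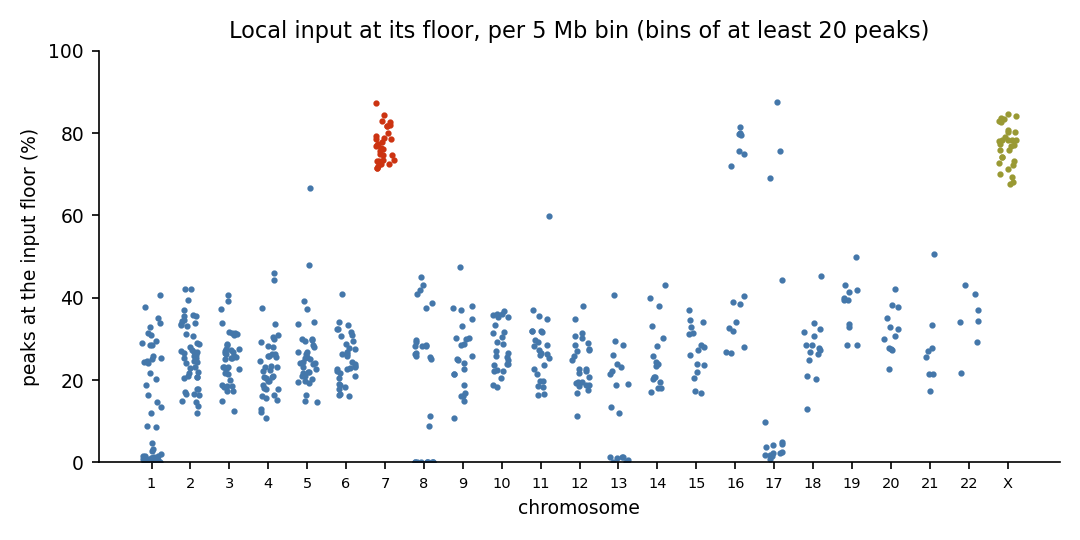
Share of OTX2 peaks whose local input lay at its floor (vertical axis, percent) in each 5 Mb bin with at least 20 peaks, by chromosome (horizontal axis). All full chromosome 7 bins (red) lie between 71.4% and 87.3%, chromosome X bins (olive) overlap this range, and the other autosomes (blue) reach this range in bins of chromosomes 16 and 17.

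The plot of the floor share by bin shows high shares over the whole of chromosome 7, whereas chromosomes 16 and 17 had bins at both low and high levels. Bin median heights on chromosome 7 ran from 41 to 66 fragments, and 28 of the 31 lay below 52, the median of the other autosomes' bins.

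The tallest peaks of chromosome 7 lay away from promoters, as most of its peaks did, and were scattered along the chromosome. The 20 tallest had 235 to 294 fragments and fold enrichments of 20.9 to 43.6, and fell into 15 of the 5 Mb bins, 4 on the short arm and 16 on the long arm. Their summits lay in introns (11 peaks) or outside protein-coding genes (9 peaks), none in an exon and none within 5 kb of a TSS. Of all chromosome 7 peaks, 48.7% lay in introns, 40.6% outside genes, 2.19% in exons away from a TSS and 5.28% within 1 kb of a TSS. The locations of these 20 thus resembled those of the chromosome's peaks. The nearest TSS was 10.5 kb away, and 12 of the 20 were over 100 kb from any. The local input was at its floor under 10 of them, against 3322 of all 4339.

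The tallest peak, from 63615420 to 63616153, had 294 fragments (261 to 330) and a fold enrichment of 43.6, outside genes and 383 kb upstream of the zinc finger gene ZNF722. It lies at the edge of the pericentromeric gap. Across the centromere, the tallest short-arm peak, from 56960838 to 56961560, had 281 fragments (249 to 316) and a fold enrichment of 41.6, 489 kb upstream of ZNF716, another zinc finger gene. Both had their local input at the floor, and they were taller than 98.5% and 98.1% of all peaks in the list.

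The other tallest peaks of the long arm between 115 and 135 Mb form a loose group. A peak of 284 fragments (252 to 319) from 134515402 to 134516272, 11.9 kb upstream of the aldo-keto reductase gene AKR1B10, stood over an input of 6 and had a fold of 29.97. A peak of 276 fragments (244 to 311) from 116979370 to 116979956 lay in intron 1 of ST7, with the input at the floor and a fold of 40.9. Similar heights thus gave unequal folds where the input differed. A further peak of 274 fragments (243 to 308) from 126842242 to 126843136 in intron 6 of GRM8, a presynaptic metabotropic glutamate receptor, had an input of 7 and a fold of 25.3. In intron 1 of CADPS2, from 122744798 to 122745853, a peak of 270 fragments (239 to 304) at the input floor had a fold of 40.02.

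Other tall peaks lay in introns of genes with roles in neurons. AUTS2 held a pair, both in intron 4: from 70237230 to 70238557 with 271 fragments (240 to 305) and from 70352874 to 70354875 with 235 (206 to 267). SEMA3A had a peak of 253 fragments (223 to 286) in intron 3, from 84114306 to 84115035, with a fold of 37.5. RELN, the gene of the secreted guidance protein reelin, had one of 239 fragments (210 to 271) in intron 3, with a fold of 35.4. In KCND2, a potassium channel gene, a peak of 248 fragments (218 to 281) lay in intron 1. The counting intervals of these 5 heights overlap.

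The rest of the 20 were a peak of 261 fragments 159 kb upstream of SP4, a neuronal zinc finger transcription factor, one of 254 fragments 10.5 kb upstream of the zona pellucida gene ZP3, and one of 249 fragments in intron 20 of ATP6V0A4, a proton pump subunit. GALNT17, a glycosyltransferase gene, had 248 fragments in intron 7 and IGF2BP3, an RNA-binding protein gene, 237 in intron 10. Peaks of 247 and 244 fragments lay 35.3 kb from the TSS of NDUFA4, a gene of the respiratory chain, and 80.1 kb upstream of COL1A2, a collagen gene. The last pair, of 236 and 235 fragments, lay in a stretch where the nearest TSS, that of the chaperone gene DNAJB9, was 1094 and 532 kb away.

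**Figure D5:**
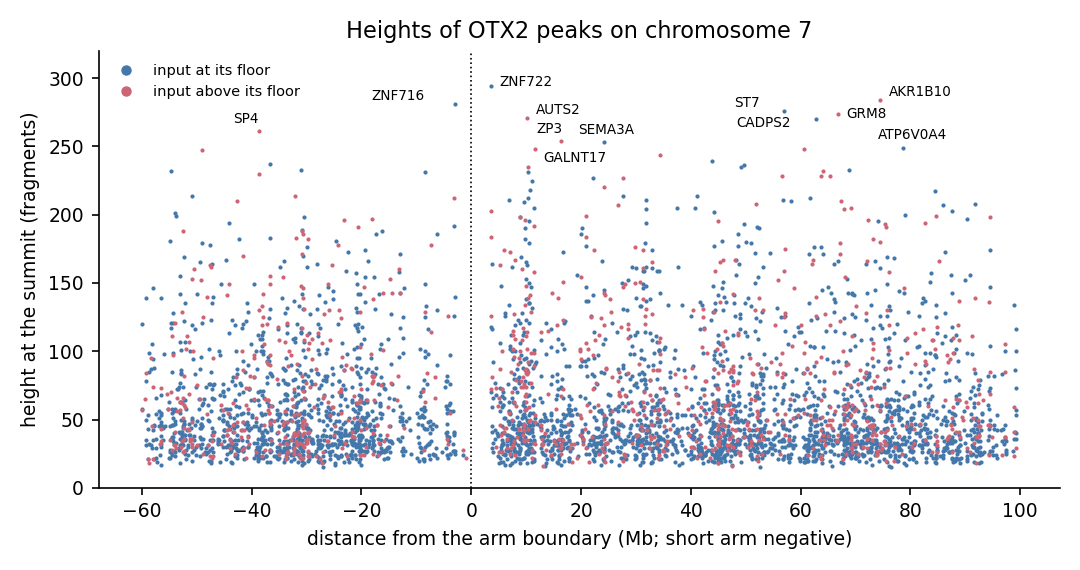
Summit height of each of the 4339 OTX2 peaks of chromosome 7 (vertical axis, fragments) by distance from the arm boundary in Mb (horizontal axis, short arm negative), with local input at its floor (blue) or above it (red). The 12 tallest are named by the gene that holds them or, outside genes, the nearest protein-coding TSS, and the tallest peak of each arm, of 281 and 294 fragments, lies beside the empty stretch at the boundary.

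In the plot of heights along the chromosome, peaks over 200 fragments occur on both arms, 13 on the short and 52 on the long arm. The column of points near 10 Mb on the long-arm side lies over AUTS2.

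Fewer chromosome 7 genes had an OTX2 peak near the TSS. Over all chromosomes 57.2% of protein-coding genes had at least 1 peak in the window around the TSS described above, and on chromosome 7 344 of 921 had one, 37.4% (34.3% to 40.5%), the lowest share of the 22 autosomes. The other autosomes stood at 59.6% and chromosome X at 30.1%. The arms did not differ beyond their intervals, with 104 of 295 genes (35.3%, 30.02% to 40.9%) on the short arm and 240 of 626 (38.3%, 34.6% to 42.2%) on the long arm. At genes with a peak, the strongest had a median of 40 fragments on chromosome 7 and 54 on the other autosomes, and at most 233 against 442. More than 1 peak was present at 11.3% of chromosome 7 genes and 24.9% of genes on the other autosomes, and a tall one at 3.26% and 11.8%.

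Of 80 chromosome 7 genes listed by function, 28 had a peak in this window, 35% (25.5% to 45.9%), under the 57.2% over all chromosomes and near the 37.4% of chromosome 7. By list, 10 of 22 genes of axon guidance and adhesion had one, 6 of 22 of neural development, 4 of 12 of the HOXA cluster, 5 of 12 of tumour growth and 3 of 12 of synapse and channels. All 5 Wilson intervals take in 37.4%, the share over the chromosome, so at these sizes no list stood apart from it.

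In the axon guidance list, the strongest was at GNG11, a G-protein gamma subunit, with 80 fragments and a fold of 11.998. Its summit lay 5199 bp upstream, just past the window. RELN had 60 fragments, a fold of 9.05 and a summit 1129 bp upstream, and SEMA3A 51 fragments, a fold of 7.72 and a summit 549 bp upstream. CDK5, the kinase of post-mitotic neurons, had 50 fragments and a fold of 7.57 at 2585 bp upstream. The TSS peaks of RELN and SEMA3A were thus far lower than the intronic peaks of the same genes, of 239 and 253 fragments. The 12 members with no peak at the TSS were SEMA3C, SEMA3E, PLXNA4, EPHA1, EPHB4, NRCAM, LIMK1, MET, GNAI1, GNB2, GNGT1 and ARPC1A. Several of them held peaks inside the gene, with 22 in PLXNA4, a semaphorin receptor, and 11 in SEMA3C, whose tallest had 199 fragments. The receptor tyrosine kinase gene MET held 6, with a tallest of 211 fragments. The ephrin receptor genes EPHA1 and EPHB4 held none.

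In the neural development list, FZD1, a WNT receptor, had the strongest peak, with 57 fragments and a fold of 8.61 at 70 bp upstream of the TSS. SP4 had 42 fragments and a fold of 6.39. The speech and language transcription factor gene FOXP2 had 36 fragments and a fold of 5.51 at 4277 bp upstream, and ETV1, an ETS factor of cerebellar granule cells, 35 and 5.36. All these heights were below 60 fragments, where the strongest peak near the TSS had a median of 40 fragments over chromosome 7 genes with a peak. The 16 members with no peak at the TSS were SHH, SMO, GLI3, EN2, AUTS2, TWIST1, NEUROD6, DLX5, DLX6, MNX1, MEOX2, CUX1, LFNG, WNT2, WNT16 and FZD9. They include the hedgehog ligand SHH, its signal transducer SMO and its effector GLI3, but GLI3 held 18 peaks inside the gene, the tallest of 197 fragments. At AUTS2, with 100 peaks inside the gene, the nearest to the TSS was 14.8 kb away. EN2, a patterning gene of the midbrain and hindbrain, had no peak within 75.6 kb of its TSS.

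In the HOXA cluster of anteroposterior patterning genes, the strongest peak had 97 fragments and a fold of 13.9, 2803 bp upstream of HOXA9, and lay inside the HOXA10 gene, just outside the window of the HOXA10 TSS. HOXA13 had 50 fragments and a fold of 7.57, and HOXA3 and HOXA6 shared 1 peak of 35 fragments and a fold of 4.46. Members without one included HOXA2, HOXA4, HOXA5, HOXA7, HOXA10, HOXA11 and EVX1. HOXA2, towards the anterior end of the cluster, was 48.3 kb from the nearest peak.

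Of the tumour and growth genes, EZH2, the H3K27 methyltransferase of Polycomb complex PRC2, had 39 fragments and a fold of 5.95 and the replication helicase gene MCM7 37 and 5.66. CAV1, a caveolar protein gene, had 35 and 5.36, and TES, a focal adhesion gene, 25 and 3.23. These heights are below the median of 46 fragments over all peaks of the chromosome. The like measure is lower, a median of 40 fragments for the strongest peak near the TSS at chromosome 7 genes with a peak. No TSS peak was called at EGFR, HGF, BRAF, KMT2C, TRRAP, PTN and INHBA. EGFR, a growth factor receptor often amplified in gliomas, lies in the thin stretch at the centromere. Its TSS was 200 kb from the nearest peak, and no peak lay inside the gene.

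Among synapse and channel genes, PCLO, a scaffold of the presynaptic active zone, had 97 fragments and a fold of 14.5 at 4144 bp upstream. GRM8 had 85 fragments and a fold of 12.7 at 3010 bp upstream, and STX1A, a SNARE of vesicle fusion, 21 and 3.30. No TSS peak was present at GRM3, KCND2, KCNH2, DPP6, CAMK2B, CACNA2D1, NPY, CHRM2 and PTPRN2. Several long genes among these held peaks inside, 23 in DPP6, 20 in CACNA2D1, 16 in KCND2 and 11 in GRM3, with the tallest between 198 and 248 fragments. Per Mb, DPP6 had 20.1 and CACNA2D1 40.2 peaks, against 27.3 over the chromosome. No peak was present in NPY, KCNH2 or PTPRN2, of which PTPRN2 is also long.

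Across all 1118 protein-coding promoter records of chromosome 7 in RefSeq, each 300 bp around a start, 138 (12.3%) held TAATCC or TAATCT on either strand, against 10.5% on the other autosomes. A peak overlapped 220 of the 1118 (19.7%, 17.5% to 22.1%), against 39.8% on the other autosomes and 19.7% on chromosome X. With a motif, 32.6% of chromosome 7 promoters had a peak (25.4% to 40.8%), and without one 17.9% (15.6% to 20.4%). On the other autosomes these shares were 44.7% and 39.2%. In promoters with and without the motif alike, the chromosome 7 share lay below that of the other autosomes.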

How the data were processed

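OTX2 binding was measured by ChIP-Seq with 1 OTX2 ChIP library and 1 input library of D283 tumorspheres. Reads were aligned by the authors to GRCh38 using Bowtie2 2.2.4. Peaks came from MACS2 2.1.0.20140616 in narrow mode at a q-value cutoff of 0.05, an effective genome size of 2700000000 and 1 fragment kept per position. Of 84980793 ChIP fragments 61259377 were kept, and of 32292980 input fragments 22521186. Pileup was deposited as a signal: fragment coverage of the summit after the ChIP library had been scaled down. The scale follows from the numbers of kept fragments and makes each ChIP fragment worth 0.735. This is more than the plain ratio of kept input to kept ChIP fragments. The deposited fold enrichment is the ratio of pileup to local input, each plus 1, and −log10 of the p-value and of the q-value was deposited for every peak. Peak lengths were deposited in bp. Per the methods of the study, blacklisted regions were masked. The peak numbers of chromosome 7 have 0 gaps, so whether the deposited list was made before or after masking is not known.

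Pileup was divided by 0.735 per fragment. Every value lay within 0.00680 of a whole fragment. The local input was taken back from pileup and fold enrichment, with values below 3.99 counted as at the floor. It exists only where a peak was called, and input below the floor is not visible in it, so at such peaks a fold enrichment is relative to the floor. Densities run from the first to the last peak of a chromosome or arm. Genes and their GRCh38 positions come from GENCODE 44, as recorded in an annotation placed on GRCh37, with no coordinate converted, and the TSS is the 5′ end of the gene record. Promoter sequences and counts come from RefSeq (GRCh38.p14). Of 1118 chromosome 7 promoters, 973 had the start of a transcript of their gene in the given orientation and 0 in the opposite. Sequences inside peaks were not analysed here.

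Chromosome 7, the gene lists and the limits were chosen with earlier results of these data known, so the lists are a description only. Genes named are those at the 20 tallest peaks, at the tallest peak of a bin singled out, the 4 highest folds of each list and its members without a peak. Some genes covered by this rule are not reported here. The promoters shown, the genes of dense windows and gaps and those with the most peaks were chosen after their values were seen. Rate ratios have exact conditional binomial intervals, and no test was run. Counting was tested on simulated data. Scripts ran on Python 3.11.15 with scipy 1.17.1, numpy 2.4.6 and pandas 2.3.3, and figures were drawn with matplotlib 3.10.9. Alternatives were stricter −log10 q or fold limits, other boundaries, bins, lengths, references, height limits and TSS windows.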

Additional observations from a re-analysis of the deposited data

How the results depend on the processing

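No paired analysis was possible because ChIP and input each had a single library. The density of chromosome 7 relative to the other autosomes stayed below 1 throughout, at 0.6376 for peaks with a fold of 5 or more, 0.6119 with only occupied 100 kb windows as length, 0.528 against chromosomes 6 and 8, 0.5788 with peaks closer than 1 kb merged and 0.5805 with high-input peaks removed. The short to long arm ratio was 0.9525 (0.894 to 1.01) with the boundary at 58 Mb and 0.961 (0.902 to 1.02) with occupied windows. The median height ratio, 0.868 as reported, was 0.85 for a −log10 q of 5 or more, 0.7595 for a fold of 5 or more and 0.7556 within 1 kb of a TSS. The tall peak ratio fell to 0.2407 from 150 fragments and 0.1233 from 200. For the local input, the ratio was 0.707 by the mean and 0.3062 by the share above the floor, and 0.9966 between the arms by the mean. Genes with a peak near the TSS made up 31.81% under that −log10 q limit, 23.67% under the fold limit, 27.25% within 1 kb and 50.27% with any transcript TSS, where by construction fewer peaks or a narrower or wider window count. These are shares of chromosome 7 genes. The shares over all genes at the same settings are not given here, so no comparison with other chromosomes follows from them. The cause of the other shifts was not tested. The remaining 30 values stayed within their intervals, among them the share of bins below the median, 100% as reported, 93.55% with the fold limit and 93.67% with 2 Mb bins. No ratio turned in direction. The reference without chromosomes 8 and 17 was chosen after seeing the data for the median height (0.8846) and the tall peaks (0.3948). The input depth limits the local input: 1 library with most chromosome 7 peaks at the floor cannot rank inputs below it.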
